A study of Homo sapiens with 4 samples.

Results

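Keratins were followed across 4 RNA sequencing libraries of SUM159, a human cell line from a triple-negative breast cancer (TNBC). The set held 10 named keratin genes of the 60279 genes listed: the hair keratins KRT34 and KRT81, the keratins of basal and stratified epithelium KRT17, KRT14, KRT5 and KRT6A, and the keratins of simple epithelium KRT7, KRT8, KRT18 and KRT19. All 10 symbols matched an Ensembl identifier. The set was drawn up around the question whether basal and hair keratins were higher with indisulam while simple keratins held, with these counts already known, so the ratios describe the members and test nothing. A further 45 protein-coding keratin genes and 149 keratin pseudogenes in the same count tables served for comparison.

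Each condition had 1 library. The conditions were untreated SUM159 cells, cells given palbociclib (an inhibitor of the cell cycle kinases CDK4 and CDK6), cells given indisulam (a sulfonamide that leads to degradation of the splicing factor RBM39) and cells given both drugs, named combination. The labels of the libraries give 0.5 µM palbociclib and 2 µM indisulam for 10 days. The text on the series instead gives 2 µM and 3 µM for 16 h in technical duplicates. In the paper, the values of the labels are those of SUM159 in the senescence experiment. The values of the series text are those of its splicing experiment. Which experiment these libraries belong to was not stated, so neither the dose nor the duration is certain. The untreated library is the only control, and the labels name no solvent control for it. SUM159 is a single cell line, and it was not stated whether a library pools duplicates. No difference here has a replicate check, and intervals in brackets are 95% intervals that cover counting error only.

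Keratins are the intermediate filament proteins of epithelial cells. Type I and type II keratins pair to form filaments, so each filament holds both types. KRT8 and KRT18 are the usual pair of simple, single-layered epithelium such as the luminal cells of the breast duct, often with KRT7 and KRT19. KRT5 and KRT14 are the pair of the basal layer of stratified epithelium and of basal breast cells. KRT6A, KRT16 and KRT17 are induced in skin after wounding, and hair keratins such as KRT34 and KRT81 build the hair shaft. Transcript levels of keratins say nothing about the filaments themselves.

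Gene reads per library ranged from 12555908 to 16712174, and a count of 3 reads, the floor used here, amounted to 0.239 CPM (counts per 1000000 gene reads of the library) in the shallowest library, untreated, and to 0.180 CPM in the deepest, indisulam. A ratio is the log2 ratio of counts scaled to the same library total, with 1 scaled count added. A gene was called higher or lower when it differed by 2-fold or more and the counting interval of its ratio excluded 0. Calls were made for the 14269 genes whose CPM averaged 1 or more across the libraries, which included 8 of the 10 members. KRT14, at a mean of 0.790 CPM, and KRT19, at a mean of 0.566 CPM, fell under that level. As a bound on noise between libraries, the spread over all genes of the departure from additivity of the drugs was divided by the square root of 2. It gave 0.62 on the log2 scale for genes of 1 to 5 CPM, 0.37 for 5 to 20 CPM, 0.26 for 20 to 100 CPM and 0.28 at 100 CPM or more.

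The markers of the line were read before the keratins. The mesenchymal gene VIM, which encodes the intermediate filament protein vimentin, had 57726 reads without treatment, 36565 under palbociclib, 52331 under indisulam and 37945 under both drugs. As CPM, VIM was at 4597.5, 2881.1, 3131.3 and 2642.5 in these libraries. None of the 8 mesenchymal markers, all above 1 CPM, was called in the comparison of indisulam with untreated, beside 15.2% of all genes. For the combination against palbociclib 1 of the 8 was called higher, beside 9.62% of all genes. The epithelial adhesion genes were low, with 5 to 16 reads of EPCAM and 10 to 28 reads of CDH1, which encodes E-cadherin. The estrogen receptor gene ESR1 had between 4 and 16 reads. The 11 epithelial and luminal markers together had 168.5 CPM without treatment, 164.8 under palbociclib, 136.5 under indisulam and 136.4 under both drugs, most of it from ERBB2. Keratins of the skin surface were used to look for skin cells on the sample. KRT1 and KRT2 had no read in any library, KRT9 had 6 reads in the combination library only, and filaggrin (FLG) and LORICRIN had at most 1 read in a library. KRT10, the type I partner of KRT1 in upper skin layers, was the exception on that list, with 440 reads without treatment, 330 under palbociclib, 459 under indisulam and 359 under both drugs.

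**Figure D1:**
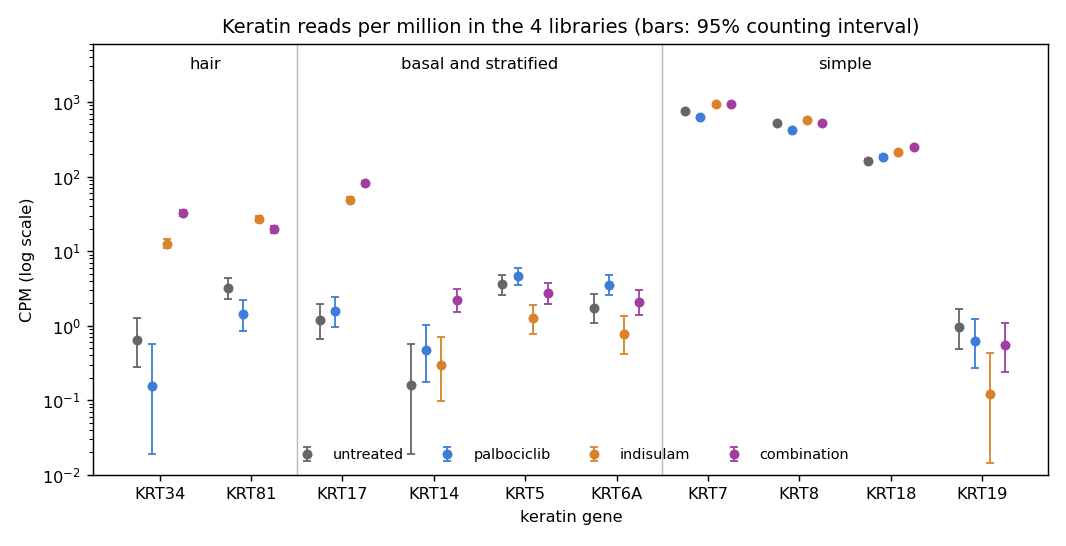
CPM (log scale) of the 10 keratins in the 4 libraries, with 1 point per library and bars for the 95% counting interval. KRT34, KRT81 and KRT17 lay higher in the indisulam and combination libraries than in the other libraries, KRT7, KRT8 and KRT18 stayed between 162.3 and 953.7 CPM, and KRT14, KRT5, KRT6A and KRT19 stayed under 5 CPM.

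KRT34 (ENSG00000131737, chr17:41377669-41382306, GRCh38, minus strand), a type I hair keratin, had 8 reads without treatment, 2 under palbociclib, 209 under indisulam and 469 under both drugs. As CPM these were 0.637, 0.158, 12.5 and 32.7. The libraries without indisulam were near the floor, and both libraries with indisulam lay above them. In bulk RNA, more cells with a transcript and more transcript per cell cannot be told apart. KRT34 was 19.6-fold higher with indisulam than untreated (9.78 to 46.1), a log2 ratio of 4.15 (3.23 to 5.07). Against palbociclib the combination was 207.3-fold higher (57.1 to 1716), which rests on 2 reads in the palbociclib library, and the log2 ratio was 7.16 (5.78 to 8.55). The combination was also called higher than indisulam alone, at 1.38 (1.15 to 1.61).

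The promoter of KRT34 is shown because this gene had the lowest level of the called members without indisulam and the highest fold in the combination against palbociclib. RefSeq promoter sequences on GRCh38.p14 were matched for 3 of the 10 members (KRT34, KRT5 and KRT8), and the 250 bases before the start are printed on the strand of the gene, with a match to the TATA box letters in capitals. KRT5 is printed beside it as a basal keratin that was lower with indisulam.
KRT34, chr17:41382307-41382556, minus strand: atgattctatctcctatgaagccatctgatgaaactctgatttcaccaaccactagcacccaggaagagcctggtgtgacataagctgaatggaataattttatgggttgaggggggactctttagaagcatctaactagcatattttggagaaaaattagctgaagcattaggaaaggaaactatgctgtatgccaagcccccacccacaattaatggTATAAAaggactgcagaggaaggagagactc
KRT5, chr12:52520395-52520644, minus strand: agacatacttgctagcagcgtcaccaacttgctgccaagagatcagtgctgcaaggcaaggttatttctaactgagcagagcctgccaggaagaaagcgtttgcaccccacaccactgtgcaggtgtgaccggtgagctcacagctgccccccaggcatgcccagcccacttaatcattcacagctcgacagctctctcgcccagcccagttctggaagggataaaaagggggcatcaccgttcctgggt

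TATAAA stood 31 bases before the start of KRT34. The AP-1 motif TGANTCA and the GC box GGGCGG were not found there on either strand, and none of the 3 motifs was found in the window of KRT5 or of KRT8, where the KRT8 window lies before an outer alternative start. Over 35116 promoter windows of the same length, TATAAA was in 10.7%, TGANTCA in 6.57% and GGGCGG in 42.6%. These matches describe the letters of the windows only. The KRT5 window holds GATAAA close to the start, which an exact search for TATAAA does not count.

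KRT81 (ENSG00000205426, chr12:52285913-52291534, minus strand), a type II hair keratin, had 40 reads without treatment, 18 under palbociclib, 456 under indisulam and 280 under both drugs, which were 3.19, 1.42, 27.3 and 19.5 CPM. Both libraries with indisulam lay above both without it. Indisulam over untreated gave a log2 ratio of 3.07 (2.61 to 3.53), an 8.56-fold difference, and combination over palbociclib one of 3.72 (3.06 to 4.37). With palbociclib alone KRT81 was called lower than untreated, at -1.13 (-1.90 to -0.36). The combination was 1.40-fold lower than indisulam alone (log2 ratio -0.48, -0.70 to -0.27), which was not called.

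KRT81 cannot be read apart from KRT86 (ENSG00000170442, chr12:52249300-52309163, plus strand), within whose annotated span it lies on the opposite strand. Their coding sequences were identical at 93.6% of 1454 aligned bases, with an identical run of 605 bases. Of the 65-base windows of the KRT81 transcript, 39.6% also occurred at another place. For 36.7% of all its windows a match lay in the span of KRT86, outside the KRT81 exons, or in a KRT86 transcript.

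A read from a window found at both genes had more than 1 place in the genome and was lost from both genes if only reads with 1 place were counted. KRT86 had 51 reads without treatment, 14 under palbociclib, 703 under indisulam and 280 under both drugs, so its libraries rank as those of KRT81 do. KRT86 was called lower in the combination than with indisulam alone, at -1.11 (-1.31 to -0.91). KRT81 took 43.96%, 56.3%, 39.3% and 50% of the reads of both genes in these libraries. With KRT81, KRT86 and their paralog KRT83 summed, the log2 ratio of indisulam to untreated was 3.22 (2.92 to 3.53), and that of the combination to palbociclib 3.91 (3.41 to 4.41). The sum with palbociclib was lower than untreated, at -1.53 (-2.09 to -0.96). The summed counts, like KRT81 alone, were thus higher with indisulam and lower with palbociclib.

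KRT17 (ENSG00000128422, chr17:41619442-41624842, minus strand), a type I keratin of basal cells and wounded skin, had 15 reads without treatment, 20 under palbociclib, 820 under indisulam and 1177 under both drugs. These were 1.19, 1.58, 49.1 and 82.0 CPM, and both libraries with indisulam were far above the others. KRT17 was 41.1-fold higher with indisulam than untreated (24.8 to 73.7), a log2 ratio of 5.28 (4.58 to 5.97). Against palbociclib the combination was 52.0-fold higher (33.5 to 85.5), a log2 ratio of 5.64 (5.03 to 6.25). The combination was 1.67-fold above indisulam (log2 ratio 0.74, 0.61 to 0.87), under the 2-fold threshold, and palbociclib and untreated were not separated by their counts (0.38, -0.54 to 1.30).

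Reads of KRT17 could be told from those of its close relatives over most of the transcript. The coding sequence of KRT17 was identical to that of KRT14 at 84.7% of aligned bases and to that of KRT16 at 79.3%, and 8.19% of its 65-base windows occurred elsewhere, for example 4.06% in the pseudogene KRT17P3. The window in which KRT17 and KRT16 differ most is shown, with the 24 differing bases in capitals.
KRT17, chr17:41624085-41624149, minus strand: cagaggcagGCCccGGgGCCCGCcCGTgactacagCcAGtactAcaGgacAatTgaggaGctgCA
KRT16, chr17:41612165-41612229, minus strand: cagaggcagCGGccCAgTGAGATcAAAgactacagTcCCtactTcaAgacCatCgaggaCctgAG

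KRT16, a type I keratin of wounded skin that is no member of the set, had 2 reads without treatment, 5 under palbociclib, 47 under indisulam and 73 under both drugs. Its log2 ratio was 3.65 (2.21 to 5.09) between indisulam and untreated and 3.47 (2.35 to 4.59) between combination and palbociclib. With KRT17 summed with KRT16, KRT14 and keratin pseudogenes, 10 genes in all, the counts were 24, 31, 882 and 1293 and the log2 ratio of indisulam to untreated was 4.74 (4.17 to 5.30).

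KRT5 and KRT6A were under 5 CPM in every library. KRT5 (ENSG00000186081, chr12:52514575-52520530, minus strand), the type II keratin of the basal layer, had 45 reads without treatment, 58 under palbociclib, 21 under indisulam and 39 under both drugs. As CPM these were 3.58, 4.57, 1.26 and 2.72, and the indisulam library was the lowest. It was called lower with indisulam than untreated, at -1.46 (-2.18 to -0.75). The combination against palbociclib was also lower, at -0.74 (-1.31 to -0.16), but was not called. The combination was called higher than indisulam, at 1.07 (0.34 to 1.80).

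KRT6A (ENSG00000205420, chr12:52487176-52493257, minus strand), a type II keratin induced in wounded skin, had 22 reads without treatment, 45 under palbociclib, 13 under indisulam and 30 under both drugs. Again the indisulam library was the lowest and the palbociclib library the highest. Indisulam over untreated gave a log2 ratio of -1.10 (-2.03 to -0.18), which was called lower, and combination over palbociclib one of -0.74 (-1.39 to -0.10), which was not. Each of these ratios of KRT5 and KRT6A was between 1.18 and 2.34 times the bound on noise at their level. Those of KRT34, KRT81 and KRT17 were at least 8.35 times their bound. The bound follows the mean CPM, which for KRT34 and KRT17 comes mostly from the libraries with indisulam. It was 0.37 for KRT34, below the counting errors of its ratios (0.47 and 0.71), and 0.26 for KRT17, below 0.36 and 0.31. For these genes it is thus no bound on the noise of the ratio. Of the KRT6A windows, 30.6% occurred elsewhere (28.6% of all windows in KRT6C and 21.5% in KRT6B), and these paralogs had no more than 1 read between them in any library.

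KRT14 (ENSG00000186847, chr17:41582279-41586895, minus strand), the type I partner of KRT5, had 2 reads without treatment, 6 under palbociclib, 5 under indisulam and 32 under both drugs. The combination library was the highest, and the others held 6 reads or fewer. Indisulam and untreated could not be told apart at this depth (log2 ratio 0.68, -1.03 to 2.40). The combination was 4.71-fold above palbociclib (1.94 to 13.8) and 7.45-fold above indisulam (2.88 to 24.5). KRT14 shared 14.1% of its windows with other places, the largest share with KRT16, at 6.997%.

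Among the members, the simple keratins KRT7, KRT8 and KRT18 held the most reads. KRT7 (ENSG00000135480, chr12:52232520-52252186, plus strand), a type II keratin, had 9551 reads without treatment, 8009 under palbociclib, 15882 under indisulam and 13694 under both drugs, which were 760.7, 631.1, 950.3 and 953.7 CPM. The libraries with indisulam were the highest. Log2 ratios were 0.32 (0.28 to 0.36) between indisulam and untreated and 0.60 (0.56 to 0.64) between combination and palbociclib, a 1.51-fold difference, and the combination and indisulam differed by 0.01 (-0.03 to 0.04). The first ratio was 1.15 times and the second 2.13 times the bound on noise.

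KRT8 (ENSG00000170421, chr12:52897187-52949954, minus strand), the type II partner of KRT18, had 6506 reads without treatment, 5283 under palbociclib, 9602 under indisulam and 7620 under both drugs. As CPM these were 518.2, 416.3, 574.6 and 530.7, with palbociclib the lowest. Indisulam over untreated gave a log2 ratio of 0.15 (0.10 to 0.19), within the bound on noise. Combination over palbociclib gave one of 0.35 (0.30 to 0.40), which was 1.25 times the bound.

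KRT18 (ENSG00000111057, chr12:52948871-52952906, plus strand), the type I keratin of simple epithelium, had 2038 reads without treatment, 2351 under palbociclib, 3560 under indisulam and 3573 under both drugs. These were 162.3, 185.2, 213.0 and 248.8 CPM, so that every treated library lay above the untreated one. Log2 ratios were 0.39 (0.31 to 0.47) between indisulam and untreated and 0.43 (0.35 to 0.50) between combination and palbociclib. The largest KRT18 ratio was 0.62 (0.54 to 0.69), for the combination against untreated, a 1.53-fold difference. In this order, these KRT18 ratios were 1.40, 1.52 and 2.20 times the bound on noise.

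KRT19 (ENSG00000171345, chr17:41523617-41528308, minus strand), a type I simple keratin, had 12 reads without treatment, 8 under palbociclib, 2 under indisulam and 8 under both drugs. It had 12 reads or fewer in every library, and was lower with indisulam than untreated, at -2.43 (-3.90 to -0.96), on those 2 reads. No difference was detectable between the combination and palbociclib (-0.16, -1.42 to 1.10).

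**Figure D2:**
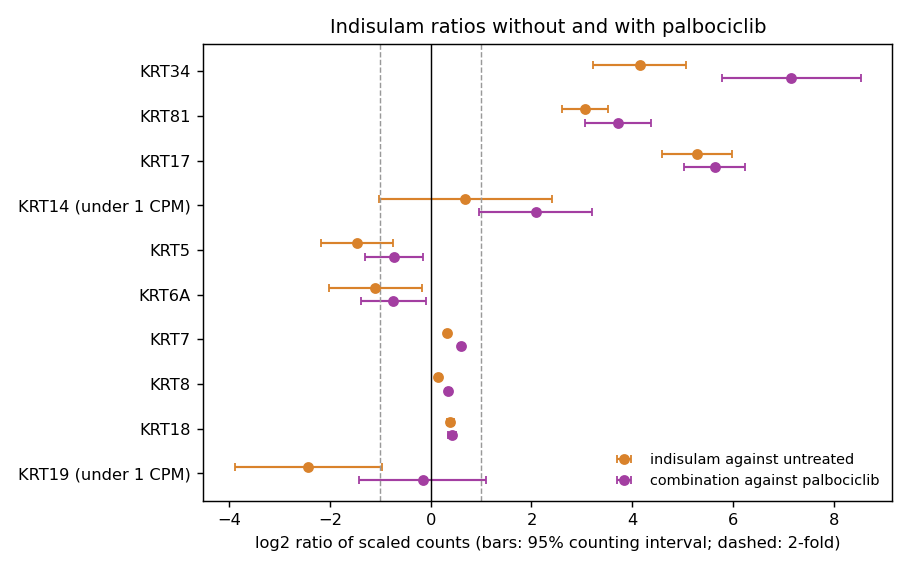
Log2 ratio of scaled counts for indisulam against untreated and for the combination against palbociclib, for each of the 10 keratins, with 95% counting intervals and dashed lines at 2-fold. KRT34, KRT81 and KRT17 lie beyond 2-fold higher in both comparisons, KRT7, KRT8 and KRT18 lie between 0.15 and 0.60, and KRT5 and KRT6A lie below 0 in both.

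Counted by group, 3 of the 5 basal and hair keratins above 1 CPM (KRT34, KRT81 and KRT17) were called higher and 2 (KRT5 and KRT6A) lower with indisulam against untreated. Over all 14269 genes, 15.2% were called in this comparison, 8.44% higher and 6.71% lower. For the combination against palbociclib, the same 3 were called higher and none lower, against 17.0% of all genes called, 9.62% higher and 7.40% lower. None of the 3 simple keratins above 1 CPM was called in either comparison. KRT34 reached a mean of 1 CPM only through the libraries with indisulam, as it had 0.637 CPM untreated and 0.158 with palbociclib. Its place among the 5 thus depends on the values that were compared. The basal and hair keratins did not move as a group. The median log2 ratio of the 2 hair keratins was 3.61 for indisulam against untreated and 5.44 for the combination against palbociclib, whereas that of the 3 basal keratins above 1 CPM (KRT17, KRT5 and KRT6A) was -1.10 and -0.74. The summed CPM of the basal members with KRT14 went the other way, through KRT17. It was 6.69 untreated and 51.4 with indisulam (KRT17 49.1), and 10.2 with palbociclib and 89.0 in the combination (KRT17 82.0). The median of the 3 simple keratins was 0.32 and 0.43, beside 0.06 and 0.07 over all genes. These comparisons share no library, but they come from the libraries with which the set was chosen. Over all genes, 4.88% were called higher in both.

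For palbociclib against untreated, 1 member was called, KRT81, which was lower, against 10.9% of all genes called, 5.96% higher and 4.95% lower. KRT34 was lower with palbociclib in its counts (8 and 2 reads), at -1.63 (-3.28 to 0.01), and KRT6A higher, at 0.99 (0.28 to 1.70), just under 2-fold. KRT7 and KRT8 were at -0.27 (-0.31 to -0.23) and -0.32 (-0.37 to -0.26). For the combination against indisulam, KRT34, KRT5 and KRT6A were called higher, against 8.28% of all genes called, 5.09% higher. For the combination against untreated, KRT34, KRT17 and KRT81 were called higher, against 23.5% of all genes called, 13.0% higher. The 3 simple keratins above 1 CPM were not called in any of the 5 comparisons.

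Set against the sum of the single drugs, the combination was above it for KRT34, with a departure of 3.01 (1.35 to 4.67) on the log2 scale. That departure was 5.79 times the spread of 0.52 for genes of its mean CPM. It rests on the 2 reads of the palbociclib library, so its counting error is larger than that spread. The departures of KRT17, at 0.36 (-0.57 to 1.29), and of KRT81, at 0.65 (-0.15 to 1.45), had intervals that held 0. Those of KRT7 (0.27), KRT8 (0.20) and KRT18 (0.03) were within the spread of 0.40 for genes at 100 CPM or more.

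Levels of the 10 members were compared with each other as CPM per kb of merged exon length. In the untreated library the order was KRT7 (190.2), KRT8 (75.3) and KRT18 (52.9), and the next, KRT81, was at 1.65. KRT5, KRT6A, KRT19, KRT17 and KRT34 followed between 0.867 and 0.390, each with an interval that overlapped that of its neighbour. Outside the set, KRT75 (63.4), KRT80 (21.1), KRT10 (16.2), KRT15 (1.79) and KRT86 (1.68) were above KRT81 in that library. With indisulam KRT17 came next among the members, after KRT7, KRT8 and KRT18, at 16.4. KRT81 followed at 14.1 and KRT34 at 7.65, and the intervals of KRT17 and KRT81 overlapped. Outside the set, KRT75 (61.8), KRT80 (41.1) and KRT86 (17.4) were above KRT17 in that library. In the combination the members after KRT7, KRT18 and KRT8 were KRT17 (27.4), KRT34 (19.98) and KRT81 (10.1), with no overlap between them. KRT75 (172.1) and KRT80 (28.7), outside the set, were above KRT17 there. KRT8 and KRT18 had overlapping intervals with palbociclib and in the combination. Since the merged exons of KRT8 are far longer than its main transcript, the length of the MANE Select transcript was tried after seeing the data, and KRT8 then stood above KRT18 in 4 of 4 libraries (297.5 and 176.1 in the combination). By that length KRT17 was at 32.3 (30.2 to 34.6) with indisulam and KRT81 at 14.1 (12.9 to 15.5), so their intervals no longer overlapped.

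**Figure D3:**
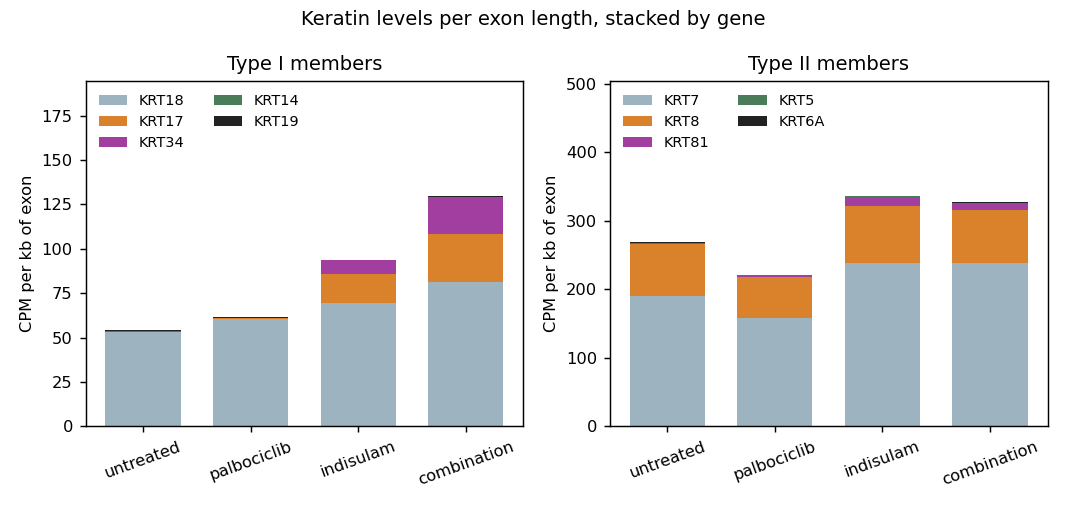
CPM per kb of exon of the type I and type II members in each library, stacked by gene. The type I stack is nearly all KRT18 in the untreated and palbociclib libraries and gains KRT17 and KRT34 in the indisulam and combination libraries, while the type II stack is mostly KRT7 and KRT8 in all 4.

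Type I members took 16.8% of the level per length of all members without treatment, 21.7% under palbociclib, 21.8% under indisulam and 28.4% under both drugs. Over all protein-coding keratins the type I share differed less between these libraries, at 17.0%, 18.5%, 19.2% and 21.7%. By the length of the MANE Select transcript the share among the members was 13.3%, 17.5%, 17.2% and 21.9%. By merged exon length, KRT18 was 97.7% of the type I level of the members untreated and 98.2% with palbociclib. It was 74.1% of that level with indisulam and 62.5% in the combination. KRT17 was 0.736%, 0.856%, 17.5% and 21.1% of that level, and KRT34 0.720%, 0.157%, 8.17% and 15.4%. By the length of the MANE Select transcript, which is shorter than the merged exons for KRT17 and KRT18 but not for KRT34, the share of KRT34 was 4.0% with indisulam and 7.93% in the combination, while that of KRT17 was 16.9% and 21.5%. Among the type II members, KRT7 and KRT8 remained the main genes in every library. Outside the set, the type II keratin KRT75 was at 63.4 CPM per kb of merged exon untreated and 61.8 with indisulam, below KRT8. It was at 94.0 with palbociclib and 172.1 in the combination, above KRT8 at 60.5 and 77.1. By the length of the MANE Select transcript, KRT8 was at 233.3 and 297.5 in these libraries. That length equals the merged exons for KRT75, so KRT8 was then the higher. All protein-coding keratins together took 0.173% of the gene reads without treatment, 0.154% under palbociclib, 0.222% under indisulam and 0.245% under both drugs. KRT7, KRT8 and KRT18 held 83.1%, 80.2%, 78.2% and 70.7% of those keratin reads.

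Of all 55 protein-coding keratin genes, 38 had at least 1 read and 15 were above 1 CPM. Of the 7 that were not members, KRT86 and KRT16 were called higher with indisulam against untreated and KRT15 lower, beside 8.44% and 6.71% of all genes. For the combination against palbociclib, KRT80, KRT86, KRT15, KRT16 and KRT23 were called higher, beside 9.62% of all genes, with KRT15 at 2.00 (1.62 to 2.38). KRT16 and KRT23 reached a mean of 1 CPM only through the libraries with indisulam. Untreated and with palbociclib, KRT16 had 0.159 and 0.394 CPM and KRT23 0.717 and 0.236 CPM. KRT80, a type II keratin with 1155, 677, 2994 and 1797 reads in the untreated, palbociclib, indisulam and combination libraries, had log2 ratios of 0.96 (0.86 to 1.06) between indisulam and untreated and 1.23 (1.10 to 1.36) between combination and palbociclib. KRT75, a type II keratin of the hair follicle, had 1727, 2590, 2241 and 5362 reads and was called higher in the combination against indisulam, at 1.48 (1.41 to 1.55), and against untreated, at 1.44 (1.36 to 1.52). KRT15, a type I keratin of basal cells, had 134, 66, 80 and 301 reads, so each single drug was below the untreated library and the combination above it. Its departure from the sum of the single drugs was 3.14 (2.59 to 3.69). KRT10, a type I keratin of upper skin layers, had ratios between -0.49 and -0.06 in the 5 comparisons and was called in none. KRT23 had 9, 3, 20 and 28 reads, and was called higher in the combination against palbociclib (2.72, 1.36 to 4.07) and against untreated (1.36, 0.36 to 2.36).

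Genes that work with keratins were read from lists chosen by role. Desmosomes and hemidesmosomes anchor keratin filaments at the cell surface. Of 22 such genes listed 15 were above 1 CPM, of which none was called higher and 1 lower with indisulam against untreated, with a median log2 ratio of -0.11, beside 8.44% higher, 6.71% lower and a median of 0.06 over all genes. It was ITGB4, an integrin subunit of hemidesmosomes, with 5293, 2956, 1682 and 735 reads in the untreated, palbociclib, indisulam and combination libraries and a log2 ratio of -2.07 (-2.14 to -1.99). For the combination against palbociclib, 5 of the 15 were called higher and 3 lower, beside 9.62% and 7.40% of all genes. Of 22 cornified envelope and keratinocyte stress genes 6 were above 1 CPM, and none was called with indisulam against untreated, beside 15.2% of all genes. For the combination against palbociclib, 2 of the 6 were called higher and none lower, beside 9.62% and 7.40% of all genes.

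Of 22 epithelial transcription factors 14 were above 1 CPM, of which 3 were called higher and none lower with indisulam against untreated, with a median log2 ratio of 0.63, beside 8.44%, 6.71% and a median of 0.06 over all genes. EHF, an ETS factor of epithelial cells, had 25, 101, 675 and 741 reads in the untreated, palbociclib, indisulam and combination libraries and a log2 ratio of 4.29 (3.74 to 4.85). ELF3, another ETS factor of epithelial cells, had 7, 3, 97 and 13 reads and a log2 ratio of 3.22 (2.24 to 4.21), and was called lower in the combination than with indisulam alone, at -2.59 (-3.37 to -1.81). FOSL1, a subunit of AP-1, had 284, 503, 885 and 1003 reads and a log2 ratio of 1.22 (1.03 to 1.42). For the combination against palbociclib, 3 of the 14 were called higher and 1 lower, beside 9.62% and 7.40% of all genes. The gene called lower was TP63, which encodes the basal factor p63. It had 851, 1378, 750 and 377 reads and a log2 ratio of -2.05 (-2.21 to -1.88) there. Of 17 other intermediate filament and linker genes 10 were above 1 CPM, of which 1 was called higher with indisulam against untreated, beside 8.44% of all genes. It was EPPK1, which encodes the keratin-binding protein epiplakin and had 0 reads untreated and 27 with indisulam. EPPK1 and ELF3 reached a mean of 1 CPM only through the libraries with indisulam. In the untreated and palbociclib libraries EPPK1 had 0 and 0.315 CPM, and ELF3 had 0.558 and 0.236 CPM.

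The genes most like a keratin in profile were found by the distance between log2 profiles over the 4 libraries, each centred on its own mean, among 11370 genes of at least 5 CPM. KRT17 was nearest to OLAH (distance 0.44, with 3, 4, 136 and 229 reads), CXCL1 (0.55) and MMP1 (0.84). KRT34 was nearest to MMP1 (0.90, with 21, 16, 698 and 1863 reads), IL1B (1.40) and OLAH (1.53). KRT7 was nearest to PPP2CB (0.02), NTMT1 (0.03) and TAPT1 (0.04), and KRT18 to C2orf69 (0.03), SECISBP2L (0.03) and TIMM23 (0.04). With 4 libraries such a profile has few points, and many genes lie close to a nearly flat one.

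**Figure D4:**
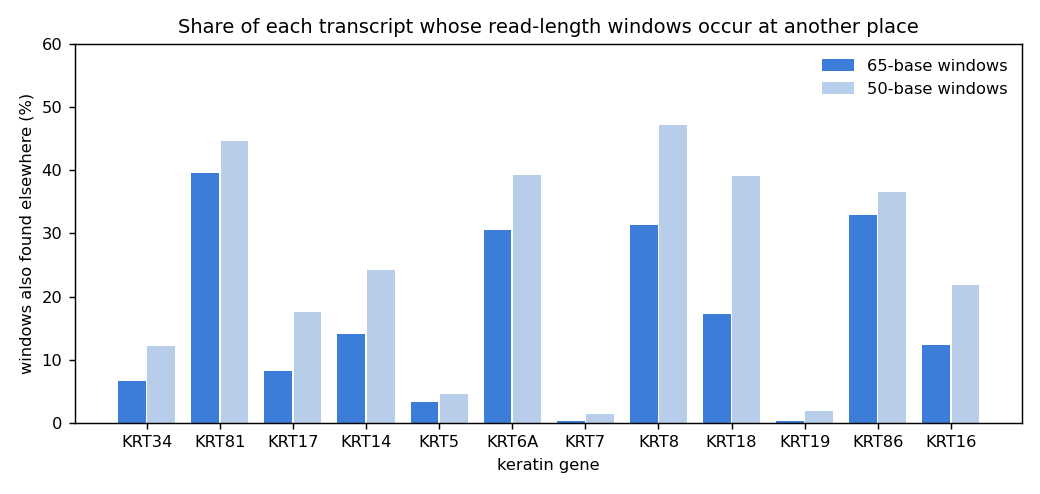
Share of the windows of each transcript, in percent, that also occur exactly at another place in the genome or in transcripts of another gene, for windows of 65 and of 50 bases, with KRT86 and KRT16 beside the 10 members. KRT81, KRT86, KRT8 and KRT6A have over 30% of their 65-base windows shared, and KRT5, KRT7 and KRT19 under 4%.

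The share of each transcript that is repeated elsewhere was used as a guide to reads lost between paralogs. It is no bound on those reads, as only exact matches were counted and coverage along a transcript can be uneven. The share of 65-base windows that occurred elsewhere was over 10% for 5 of the 10 members, namely KRT81 (39.6%), KRT8 (31.4%), KRT6A (30.6%), KRT18 (17.3%) and KRT14 (14.1%). It was 8.19% for KRT17, 6.68% for KRT34, 3.22% for KRT5, 0.320% for KRT7 and 0.226% for KRT19. Of the windows found elsewhere, 82.6% for KRT8 and 95.3% for KRT18 had a match that overlapped a keratin pseudogene. Among these were KRT8P3, which lies within the span of ASPH and held 15.6% of the KRT8 windows (20% for the span of ASPH), and KRT18P11, which lies within that of PCDH11X and held 4.60% of the KRT18 windows (5.19% for PCDH11X). The study also used reads of 75 bases, and with windows of that length, tried after seeing the data, the shares were 36.6% for KRT81, 22.5% for KRT8, 26.2% for KRT6A, 7.17% for KRT18 and 10.2% for KRT14. Of the 149 keratin pseudogenes 56 had a read and 4 had 50 or more over the libraries, led by KRT8P12 with 66, 60, 155 and 225 reads in the untreated, palbociclib, indisulam and combination libraries. All pseudogenes together had at most 0.985% of the reads of keratins and keratin pseudogenes. Adding the KRT8 pseudogenes to KRT8 gave a log2 ratio of indisulam to untreated of 0.16 (0.12 to 0.21), and adding the KRT18 pseudogenes to KRT18 gave 0.40 (0.33 to 0.48).

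Reads aligned to more than 1 place were between 6.46% and 6.84% of all tallied reads in the 4 libraries. On chromosome 12, which holds the type II genes and KRT18, relative to gene reads, they came to 4743 CPM without treatment, 4502 under palbociclib, 4891 under indisulam and 4583 under both drugs. The tallies do not name the gene, so the reads that KRT81 or KRT8 lost are not known. The exons of KRT8 and KRT18 overlap by 525 bases on opposite strands, 17.1% of the KRT18 exon length and 7.63% of that of KRT8, and reads there would have been left out as ambiguous if strand was not used in counting. Levels of KRT81, KRT8, KRT6A and KRT18 are therefore lower bounds, while a ratio keeps its value if the same share was lost in each library.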

How the data were processed

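RNA of SUM159 cells was sequenced by the authors in 4 libraries, 1 per condition, from strand-specific poly(A) libraries. The methods give single-end reads of 65 bases and alignment to hg38 for the senescence experiment and paired reads of 75 bases for the splicing experiment. Which applies to these libraries was not stated, so window shares depend on the length assumed. The submitters' processing notes name TopHat2 2.1, HTSeq and GRCh38. For the splicing experiment the paper names the aligner Hisat2, and for the senescence experiment it names no aligner. The annotation release and the strand setting are not given in the sources used here. The deposited values are raw counts of reads per Ensembl gene for 60279 genes, followed by tallies of unassigned reads, which were kept apart from genes and library totals (6.46% to 6.84% of all tallied reads had more than 1 place, 2.41% to 2.63% were ambiguous and 0.615% to 0.694% fell in no gene).

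Counts were divided by the library total of 12555908 to 16712174 gene reads, as the authors scaled depth by totals, and multiplied by the mean total. A pseudocount of 1 was added before log2, and intervals (95%) came from Poisson counting error. Fold intervals were exact conditional intervals. Calls needed 2-fold, an interval without 0 and a mean of 1 CPM. There were no replicates and so no p-values. On counts simulated for indisulam against untreated with 200 of 14269 genes changed, 93% of those changed 2.5-fold and 100% of those changed 4-fold were called. The simulated counts held Poisson error only, so these shares leave out noise between libraries. TMM and upper-quartile factors came from edgeR 4.0.16 under R 4.3.3, and the rest ran in Python 3.11.15 with pandas 2.3.3, numpy 2.4.6, scipy 1.17.1 and matplotlib 3.10.9. Symbols, positions and lengths are from GENCODE release 44 on GRCh38, counted from 1, and 56104 of 60279 identifiers had a symbol. Windows of 65 bases of the MANE Select transcripts were matched exactly to both strands of hg38 outside the exons of the gene itself, and windows over an exon junction also to transcripts of other genes. Promoters are from RefSeq.

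The members and gene lists were chosen with earlier results of these data known. Named besides the members were all keratins above 1 CPM, the 3 genes nearest in profile to KRT34, KRT17, KRT7 and KRT18, markers of the line, and up to 4 called genes of each list with the largest ratio of indisulam to untreated. TP63, KRT8P12 and the near-zero paralogs were named after their values were seen. Alternatives were other scalings, a pseudocount of 5, thresholds of 1.5-fold and 3-fold, filters of 5 CPM or none, windows of 50 and 75 bases, and MANE Select lengths. Some read-length sequences are not reported here.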

Additional observations from a re-analysis of the deposited data

Results flagged for a closer look

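KRT34 stood on opposite sides in both estimates of the palbociclib effect. Without indisulam it was lower with palbociclib than untreated, with 2 and 8 reads (log2 ratio -1.63, -3.28 to 0.01), and with indisulam it was higher in the combination, with 469 and 209 reads (1.38, 1.15 to 1.61). The difference between these estimates was 3.01 on the log2 scale. With 1 library per condition the difference was not tested, and the estimate without indisulam rests on counts at or near the floor of 3 reads.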

How the results depend on the processing

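No paired analysis was possible because each condition had 1 library. The calls of KRT34, KRT17 and KRT81 as higher in both indisulam comparisons gave a count of 3 under the main settings, TMM and upper-quartile factors, totals without mitochondrially encoded genes, a pseudocount of 5 and both thresholds. Of 56 counts of calls under all alternatives, 47 stayed within 1.5 times the main count. For the combination against indisulam the count of 3 members became 0 with a 3-fold threshold, 1 with a filter of 5 CPM and 5 with no filter. For palbociclib against untreated the count of 1 became 2 with totals without mitochondrially encoded genes, 0 with a pseudocount of 5, 2 with a 1.5-fold threshold and 0 with a 3-fold threshold. Among simple keratins, 0 became 1 for the combination against palbociclib with a 1.5-fold threshold (KRT7) and 1 for indisulam against untreated with no filter (KRT19). The scalings moved the median of all genes by less than 0.1. No called ratio changed sign, and the uncalled ratio of KRT8 for the combination against untreated was 0.03 and became -0.06 with TMM factors, while its ratio of indisulam to untreated went from 0.15 to 0.08. With windows of 50 bases, 7 members had over 10% of windows elsewhere, and KRT8 reached 47.1% and KRT18 39.1%, and with windows of 75 bases, chosen after seeing the data, 4 members had over 10%. Summing paralogs, chosen after seeing the data, moved the KRT81 ratio of the combination to indisulam from -0.48 to -0.84. Counts of KRT14, KRT19 and, in the libraries without indisulam, KRT34 are too low for small differences to show.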

Other observations

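Besides KRT14, keratins under 1 CPM with more than 12 reads in a library were KRT79, with 0, 13, 4 and 21 reads in the untreated, palbociclib, indisulam and combination libraries, and KRT38, a hair keratin gene near KRT34, with 0, 1, 0 and 19 reads. KRT38 was thus above the floor in the combination library only. The paralogs of KRT34 on chromosome 17, KRT31, KRT33A and KRT33B, had between 0 and 2 reads in every library.

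Hemidesmosome genes went different ways in the combination. COL17A1, which encodes a hemidesmosome collagen, had 48, 42, 119 and 287 reads in the same order of libraries and was called higher in the combination than with palbociclib, at 2.57 (2.11 to 3.03), whereas ITGB4 was lower there, at -2.18 (-2.30 to -2.07). DSP, which encodes the desmosome plaque protein desmoplakin that binds keratin filaments, had 141, 125, 174 and 385 reads and was higher at 1.44 (1.15 to 1.73). The keratinocyte stress genes S100A8 and S100A9 were called higher with palbociclib than untreated, at 2.44 (1.86 to 3.03) and 2.91 (2.32 to 3.50), and were not called with indisulam against untreated. These genes were named after their values were seen.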
